A study of Mus musculus with 12 samples.

Results

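Markers of the liver cells that are not hepatocytes were followed in hepatocyte preparations, as a check of purity: whether signal from endothelial cells, Kupffer cells, stellate cells and bile duct cells was present, and whether it differed between the groups. No unpurified liver cells were among the 12 samples, so the loss of other cells on purification could not be measured. The list had 44 marker genes in 4 cell types. A gene was measured where a probe carrying its symbol had a detection p-value of 0.05 or less on at least 1 of the 12 arrays, and its brightest such probe, by mean log2 signal over the 12 arrays, stood for it. This gave 35 measured markers among 10838 genes with a kept probe: 19 of 22 endothelial, 9 of 10 Kupffer, 6 of 9 stellate and 1 of 3 bile duct genes. No kept probe carried the names Tie1, Vwf, Bmp2, Cd5l, Col1a1, Col3a1, Pdgfrb, Epcam or Spp1, and these 9 genes were not analysed here.

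The study set hepatocytes excised for Gata4 and Gata6, which encode transcription factors that bind GATA sequences, against control hepatocytes. All mice were adult Gata4,6 fl/fl animals (floxed, Cre-excisable alleles of both genes) of a C57BL/6 x 129Sv background, aged 2.5 to 4.5 months. In the AAV-Cre group (6 arrays), AAV8-Tbg-Cre had been injected intravenously 2 weeks before hepatocytes were isolated, and in the AAV-GFP group (6 arrays) AAV8-Tbg-GFP, so that both groups carried the floxed alleles and a virus. The Tbg promoter is active in hepatocytes, so Cre was directed at hepatocytes and not at the cells whose markers are described here. Livers were digested by perfusion, and hepatocytes were taken through a Percoll density gradient, which removes most smaller cells, before their RNA was hybridised to Illumina mouse whole-genome bead arrays. Whether every sample came from its own animal is not stated in the labels, and p-values therefore measure only the spread among these samples.

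The liver is built mostly of hepatocytes, which face blood channels, the sinusoids, lined by fenestrated endothelial cells. Kupffer cells are the resident macrophages of the sinusoids and take up particles and aged blood cells, stellate cells lie beneath the endothelium, store vitamin A and can lay down matrix, and bile duct cells line the ducts that drain bile. Each type makes a set of surface receptors, secreted proteins or regulators that hepatocytes make little or none of, and RNA for these in a hepatocyte preparation is commonly read as carry-over of other cells. In bulk RNA, fewer cells of a type and less RNA per cell cannot be told apart.

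Signals are log2 of the quantile-normalized probe intensity, a scale on which the mean of the lowest detected signal per array was 8.22. The background was left in the signal, so differences of dim probes are compressed, and no probe's level can be set against another's. The arrays detected between 14318 and 16381 of 45281 probes, and their pairwise correlations lay between 0.966 and 0.989. Of 12 measured genes on a hepatocyte list, 10 were detected on all 12 arrays. Gata4 was at background (detected on 1 of 6 AAV-Cre and 0 of 6 AAV-GFP arrays), and the brighter of both Gata6 probes was higher on the arrays labelled AAV-Cre, by 1.71 with no overlap, which goes against the label. Where that probe lies relative to the deleted part was not settled here, so directions below rest on the labels, and AAV-Cre means the arrays labelled so. AAV-Cre 3 was the only array with a high signal of the X-inactivation RNA Xist, at 13.31, with the other 11 between 7.70 and 7.95. The Y-linked gene Eif2s3y was at 7.75 on AAV-Cre 3 and between 11.53 and 11.89 on the other 11. By these RNAs AAV-Cre 3 came from a female and the others from males, so only the AAV-Cre group held a female sample. The part of sex was not tested.

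Sequences are shown for 3 markers. Reln had the largest difference between the groups. Clec4g, an endothelial marker, and Clec4f, a Kupffer marker, were among the 6 markers with the largest SD within groups. They are the 250 bases before the start of each gene from RefSeq (GRCm38.p6), 5′ to 3′ on the gene's strand, in lower case with GATA motifs in capitals. The motif searched was AGATAA, with T also allowed as its first letter and G as its last, on both strands, and overlapping matches were counted singly.
Reln promoter: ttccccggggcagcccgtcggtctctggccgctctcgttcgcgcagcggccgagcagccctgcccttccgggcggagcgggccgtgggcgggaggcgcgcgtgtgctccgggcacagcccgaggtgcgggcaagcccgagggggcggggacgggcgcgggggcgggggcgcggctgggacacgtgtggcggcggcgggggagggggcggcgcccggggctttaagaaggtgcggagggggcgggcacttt
Clec4g promoter: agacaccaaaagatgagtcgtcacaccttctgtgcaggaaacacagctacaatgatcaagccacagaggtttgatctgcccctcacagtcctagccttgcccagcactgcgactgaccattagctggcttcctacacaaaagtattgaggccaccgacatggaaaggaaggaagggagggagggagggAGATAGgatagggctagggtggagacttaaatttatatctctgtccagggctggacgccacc
Clec4f promoter: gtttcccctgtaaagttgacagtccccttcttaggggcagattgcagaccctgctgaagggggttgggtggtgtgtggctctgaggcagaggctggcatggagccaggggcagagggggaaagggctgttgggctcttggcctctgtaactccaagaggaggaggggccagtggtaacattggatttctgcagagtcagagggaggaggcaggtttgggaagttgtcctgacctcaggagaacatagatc
The Reln window (chr5:22344706-22344955, minus strand) and the Clec4f window (chr6:83656117-83656366, minus strand) held no match, and the Clec4g window (chr8:3720652-3720901, minus strand) held 1, starting 62 bases before the gene's start. Promoter windows were taken for 24 of the 35 measured markers. Marker windows on 1 chromosome were left out, a filter not applied to the count over all windows. These 24 genes had 26 windows, since Egfl7 had 3, and 8 of the 26 windows held a match (30.8%), against 26.5% of all 32851 windows of the same length. Without regard to the number of windows, 6 of the 24 genes held one. A match is a match of letters only.

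None of the 35 markers passed an adjusted p of 0.05 between AAV-Cre and AAV-GFP hepatocytes (limma), which 0.165% of all 20561 kept probes did. By its brightest probe, 1 gene, Reln, had an unadjusted p under 0.05, a share of the markers to be read against 5.05% of all probes. Reln was also the only marker with an adjusted p under 0.25, a level the study used among others as a false discovery rate in SAM, another method, which 0.54% of all probes met. The groups overlapped in all 35 markers, while they did not in 0.501% of all probes. The log2 difference, AAV-Cre minus AAV-GFP, was above 0 in 10 markers and below 0 in 25, while it was below 0 in 49.0% of all kept probes. Many markers moved together from array to array, as described below, so their signs are not 35 separate results. The median difference was -0.033 over the markers and 0.0021 over all kept probes.

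**Figure D1:**
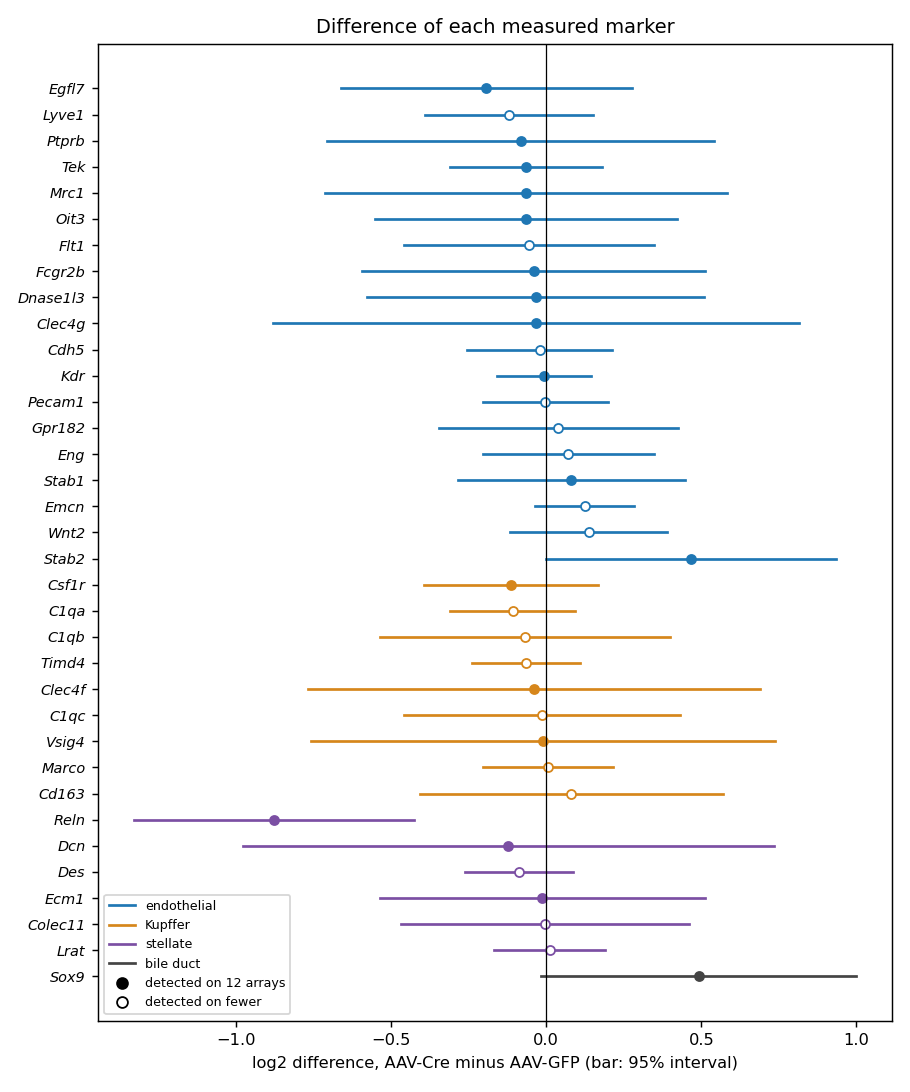
Log2 difference (AAV-Cre minus AAV-GFP) of each of the 35 measured markers, sorted within its cell type, with bars for the 95% confidence interval of limma (6 arrays per group). The interval of Reln, -1.33 to -0.43, is the only one of the 35 that excludes 0, while those of Stab2 and Sox9 reach down to about 0.

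What the design could resolve differed from marker to marker. Over the 18 markers detected on all 12 arrays, the median half-width of the 95% interval was 0.52. These intervals are not adjusted for the number of probes, so a typical marker needed a larger difference than that to be called. Reln, with a difference of -0.88 (SE 0.21), had a limma adjusted p of 0.205. The interval was widest where a marker varied most between arrays, as for Clec4g, with -0.88 to 0.82. It was narrow for markers near background such as Pecam1, with -0.20 to 0.20. For Pecam1 the narrow interval goes with a compressed scale, since it was detected on only 5 arrays.

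Among the endothelial markers, 11 of 19 were detected on all 12 arrays, 5 on 6 to 11 arrays and 3 on fewer than 6 (Pecam1, Emcn and Wnt2). Their differences ran from -0.19 to 0.47, with a median of -0.033, 6 above 0 and 13 below. Pecam1, an adhesion molecule of endothelial junctions, lay between 7.99 and 8.42 (median 8.18) on the AAV-Cre arrays and between 7.99 and 8.45 (median 8.17) on the AAV-GFP arrays, and its difference was -0.0031 (SE 0.094, limma adjusted p = 1.00, exact permutation p = 0.983). Cdh5, the cadherin of those junctions, lay between 8.18 and 8.73 (median 8.49) on the AAV-Cre arrays and between 8.15 and 8.68 (median 8.54) on the AAV-GFP arrays, with a difference of -0.021 (SE 0.11, limma adjusted p = 1.00, exact permutation p = 0.857). With these probes the groups covered nearly the same range, and AAV-GFP 2 was the lowest of the 12 arrays. The other kept Pecam1 probe, detected on 1 of 6 AAV-Cre and 3 of 6 AAV-GFP arrays, lay between 7.88 and 8.17 on the AAV-Cre arrays and between 7.98 and 8.36 on the AAV-GFP arrays. Its difference was -0.17 (SE 0.076, limma adjusted p = 0.977, exact permutation p = 0.0476), with overlapping groups at signals close to background. The other Cdh5 probe had a difference of -0.079.

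The lectin Clec4g, a surface receptor of sinusoidal endothelium, had the widest spread between arrays of the endothelial markers. It lay between 11.11 and 13.07 (median 12.14) on the AAV-Cre arrays and between 10.70 and 12.66 (median 12.46) on the AAV-GFP arrays. Its difference was -0.033 (SE 0.39, limma adjusted p = 1.00, exact permutation p = 0.924), while single arrays lay up to 2.37 apart. AAV-Cre 3 and AAV-Cre 6 were highest, at 13.04 and 13.07, and AAV-Cre 4 and AAV-GFP 2 lowest, at 11.11 and 10.70, so high and low arrays occurred in both groups. Mrc1, the mannose receptor of sinusoidal endothelium and of macrophages, lay between 8.62 and 10.25 (median 9.65) on the AAV-Cre arrays and between 8.41 and 10.02 (median 9.67) on the AAV-GFP arrays, and its difference was -0.065 (SE 0.30, limma adjusted p = 1.00, exact permutation p = 0.87). Ptprb, a receptor phosphatase of vascular endothelium, lay between 8.86 and 10.45 (median 9.45) on the AAV-Cre arrays and between 8.84 and 10.12 (median 9.82) on the AAV-GFP arrays, with a difference of -0.083 (SE 0.29, limma adjusted p = 1.00, exact permutation p = 0.799). In all 3 genes AAV-GFP 2 was the lowest array, and the ranges of both groups coincided over most of their extent.

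Stab2, a scavenger receptor of the sinusoidal endothelium that clears hyaluronan from blood, was the endothelial marker with the largest difference. On AAV-Cre arrays 1 to 6 it was at 10.30, 10.42, 10.36, 9.35, 9.62 and 9.55, and on AAV-GFP arrays 1 to 6 at 9.61, 8.76, 9.79, 9.64, 9.61 and 9.38. AAV-Cre 1, AAV-Cre 2 and AAV-Cre 3 stood above every AAV-GFP array, and the other 3 AAV-Cre arrays lay within the AAV-GFP range. The difference was 0.47 (SE 0.22, limma adjusted p = 0.986, exact permutation p = 0.106), and without AAV-GFP 2, its lowest array, it was 0.33. Stab1, a related scavenger receptor, was represented by 3 kept probes. The brightest lay between 9.24 and 10.05 (median 9.91) on the AAV-Cre arrays and between 9.23 and 9.99 (median 9.59) on the AAV-GFP arrays, and its difference was 0.081 (SE 0.17, limma adjusted p = 1.00, exact permutation p = 0.63). This probe was low on AAV-Cre 1, AAV-Cre 3 and AAV-GFP 3, arrays on which most endothelial markers were near or above their means, and the other two Stab1 probes had differences of -0.027 and -0.071.

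Among the other endothelial receptors and secreted proteins, Egfl7, a matrix protein that endothelial cells secrete, lay between 8.94 and 10.08 (median 9.57) on the AAV-Cre arrays and between 9.01 and 10.00 (median 9.87) on the AAV-GFP arrays. Its difference was -0.19 (SE 0.22, limma adjusted p = 1.00, exact permutation p = 0.437), the lowest of the endothelial markers. Lyve1, a hyaluronan receptor of sinusoidal and lymphatic endothelium, lay between 7.97 and 8.51 (median 8.15) on the AAV-Cre arrays and between 8.06 and 8.68 (median 8.25) on the AAV-GFP arrays, with a difference of -0.12 (SE 0.13, limma adjusted p = 1.00, exact permutation p = 0.4). In both genes the groups overlapped over most of their ranges. Tek, the angiopoietin receptor, lay between 8.32 and 8.98 (median 8.68) on the AAV-Cre arrays and between 8.36 and 8.87 (median 8.78) on the AAV-GFP arrays, with a difference of -0.065 (SE 0.11, limma adjusted p = 1.00, exact permutation p = 0.593). Flt1, a receptor for vascular endothelial growth factor, lay between 8.22 and 9.18 (median 8.71) on the AAV-Cre arrays and between 8.11 and 9.09 (median 8.90) on the AAV-GFP arrays, with a difference of -0.055 (SE 0.19, limma adjusted p = 1.00, exact permutation p = 0.797). Eng, a co-receptor for transforming growth factor beta, lay between 8.17 and 8.87 (median 8.28) on the AAV-Cre arrays and between 7.91 and 8.50 (median 8.34) on the AAV-GFP arrays, with a difference of 0.071 (SE 0.13, limma adjusted p = 1.00, exact permutation p = 0.634). These 3 signalling receptors overlapped between the groups as well, and AAV-GFP 2 was the lowest or among the lowest arrays for each. The remaining endothelial markers were Fcgr2b, Oit3, Dnase1l3, Gpr182, Kdr, Emcn and Wnt2, with differences between -0.064 and 0.14 and exact permutation p of 0.0974 or more. Of these Kdr, another receptor for vascular endothelial growth factor, varied least, with a within-group SD of 0.11 at signals close to background.

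Of the 9 Kupffer markers, 3 were detected on all 12 arrays, 5 on 6 to 11 arrays, and Marco, a scavenger receptor, on only 1. Their differences ran from -0.11 to 0.081, with a median of -0.039. Clec4f, a lectin that in mouse liver marks Kupffer cells, lay between 8.76 and 10.33 (median 9.31) on the AAV-Cre arrays and between 8.32 and 10.44 (median 9.59) on the AAV-GFP arrays. Its difference was -0.039 (SE 0.34, limma adjusted p = 1.00, exact permutation p = 0.92). Vsig4, a complement receptor of resident macrophages, lay between 8.86 and 10.32 (median 9.66) on the AAV-Cre arrays and between 8.30 and 10.43 (median 9.78) on the AAV-GFP arrays, and its difference was -0.0096 (SE 0.35, limma adjusted p = 1.00, exact permutation p = 0.983). Both genes were highest on AAV-GFP 4 and lowest on AAV-GFP 2, 2.12 and 2.13 apart on the log2 scale, so that the widest contrast in Kupffer signal lay within the AAV-GFP group.

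Csf1r, the receptor for the macrophage growth factor Csf1, lay between 8.34 and 8.82 (median 8.56) on the AAV-Cre arrays and between 8.30 and 9.10 (median 8.61) on the AAV-GFP arrays, with a difference of -0.11 (SE 0.13, limma adjusted p = 1.00, exact permutation p = 0.448). C1qa, a chain of the first complement component, lay between 7.96 and 8.45 (median 8.16) on the AAV-Cre arrays and between 7.99 and 8.47 (median 8.31) on the AAV-GFP arrays, with a difference of -0.11 (SE 0.093, limma adjusted p = 1.00, exact permutation p = 0.277). The groups overlapped for both, and C1qa was detected on 2 of 6 AAV-Cre and 5 of 6 AAV-GFP arrays at signals close to background. Its partner chains C1qb and C1qc had differences of -0.069 and -0.014. Cd163, the scavenger receptor for haemoglobin bound to haptoglobin, lay between 8.17 and 9.11 (median 8.43) on the AAV-Cre arrays and between 7.75 and 9.27 (median 8.32) on the AAV-GFP arrays, with a difference of 0.081 (SE 0.23, limma adjusted p = 1.00, exact permutation p = 0.755). Timd4, a receptor for dying cells, lay between 8.11 and 8.39 (median 8.20) on the AAV-Cre arrays and between 8.11 and 8.55 (median 8.27) on the AAV-GFP arrays, with a difference of -0.067 (SE 0.081, limma adjusted p = 1.00, exact permutation p = 0.403). Neither separated the groups, and the 2 highest arrays for Cd163 were AAV-GFP 4 and AAV-Cre 6, 1 of each group.

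The 6 stellate markers differed from one another. Reln, which encodes reelin, a large secreted glycoprotein that stellate cells make, was lower in AAV-Cre hepatocytes than any other marker relative to its spread. On AAV-Cre arrays 1 to 6 it was at 10.17, 10.33, 9.94, 9.46, 9.51 and 10.77, and on AAV-GFP arrays 1 to 6 at 10.59, 11.05, 10.52, 11.22, 11.15 and 10.92. Of the AAV-Cre arrays, 5 lay below every AAV-GFP array, and AAV-Cre 6 lay above AAV-GFP 1 and AAV-GFP 3, so that the groups overlapped. The difference was -0.88 (SE 0.21, limma adjusted p = 0.205, exact permutation p = 0.00649), or 1.84-fold lower in AAV-Cre, with a 95% interval of -1.33 to -0.43. It did not pass the adjusted threshold of 0.05. With each array left out in turn the adjusted p lay between 0.0666, without AAV-Cre 6, and 0.456, without AAV-GFP 4.

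Dcn, which encodes the matrix proteoglycan decorin, lay between 9.92 and 12.08 (median 11.31) on the AAV-Cre arrays and between 9.86 and 11.82 (median 11.48) on the AAV-GFP arrays, with a difference of -0.12 (SE 0.40, limma adjusted p = 1.00, exact permutation p = 0.792). Ecm1, which encodes a secreted matrix protein, lay between 8.63 and 9.93 (median 9.50) on the AAV-Cre arrays and between 8.67 and 9.83 (median 9.40) on the AAV-GFP arrays, with a difference of -0.013 (SE 0.24, limma adjusted p = 1.00, exact permutation p = 0.961). Both had the pattern of the endothelial and Kupffer markers, low on AAV-Cre 4, AAV-Cre 5 and AAV-GFP 2, which Reln had in part. On AAV-GFP 2, where Dcn was at 9.86, its lowest, Reln was at 11.05, and only AAV-GFP 4 and AAV-GFP 5 were higher. Des, the intermediate filament protein desmin, lay between 8.11 and 8.36 (median 8.29) on the AAV-Cre arrays and between 8.16 and 8.58 (median 8.32) on the AAV-GFP arrays, with a difference of -0.087 (SE 0.081, limma adjusted p = 1.00, exact permutation p = 0.288). Colec11, a soluble collectin, had a difference of -0.0032. Lrat, the enzyme that esterifies retinol for storage, was detected on 1 array, with a difference of 0.011. Apart from Reln, the stellate differences of the brightest probes thus lay between -0.12 and 0.011. The other kept Dcn probe, detected on 12 arrays, had a difference of -0.18 (SE 0.24).

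**Figure D2:**
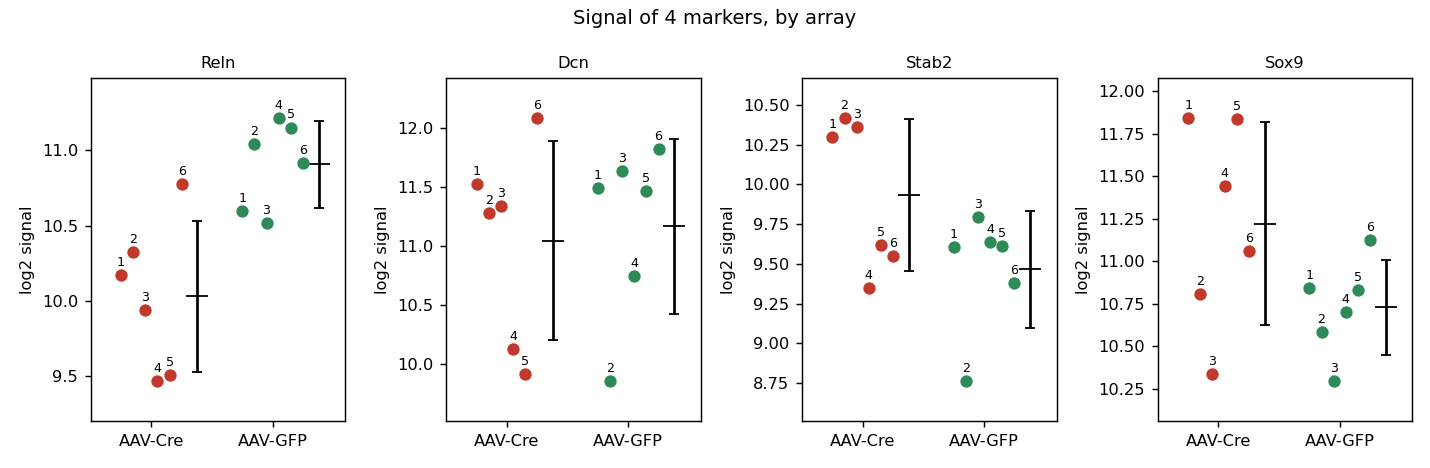
Log2 signal of Reln, Dcn, Stab2 and Sox9 on the 6 AAV-Cre and the 6 AAV-GFP arrays, numbered by replicate, with the mean and SD of each group in black. For Reln, 5 AAV-Cre arrays lie below all AAV-GFP arrays, whereas Dcn, a marker of the same cell type, has arrays near 10 and near 12 in both groups.

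Sox9, a transcription factor of bile duct cells that some hepatocytes near the portal vein also make, was the only bile duct marker measured, so a statement on bile duct content rests on 1 gene. On AAV-Cre arrays 1 to 6 it was at 11.84, 10.81, 10.34, 11.44, 11.83 and 11.06, and on AAV-GFP arrays 1 to 6 at 10.84, 10.58, 10.29, 10.70, 10.83 and 11.13. AAV-Cre 1, AAV-Cre 4 and AAV-Cre 5 stood above every AAV-GFP array, and AAV-Cre 3 was the second lowest of the 12. The difference was 0.49 (SE 0.24, limma adjusted p = 1.00, exact permutation p = 0.106), with a 95% interval of -0.018 to 1.00. The other kept Sox9 probe had a difference of 0.19.

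The level of a cell type was taken as the mean log2 signal of its measured markers on an array. The endothelial level was 9.06 ± 0.32 on the AAV-Cre arrays and 9.06 ± 0.27 on the AAV-GFP arrays (SD, n = 6 each), the Kupffer level 8.62 ± 0.31 on the AAV-Cre arrays and 8.66 ± 0.35 on the AAV-GFP arrays (SD, n = 6 each), and the stellate level 9.26 ± 0.39 on the AAV-Cre arrays and 9.45 ± 0.25 on the AAV-GFP arrays (SD, n = 6 each). These levels were chosen with results known and were not tested. Their differences were 0.0071 for endothelial, -0.037 for Kupffer and -0.18 for stellate markers, all within 1 SD. Without Reln, the stellate level of the other 5 markers was 9.11 ± 0.37 on the AAV-Cre arrays and 9.15 ± 0.32 on the AAV-GFP arrays (SD, n = 6 each), a difference of -0.043. Without AAV-GFP 2, the lowest array of its group in all 3 levels, the differences were -0.098, -0.16 and -0.27.

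**Figure D3:**
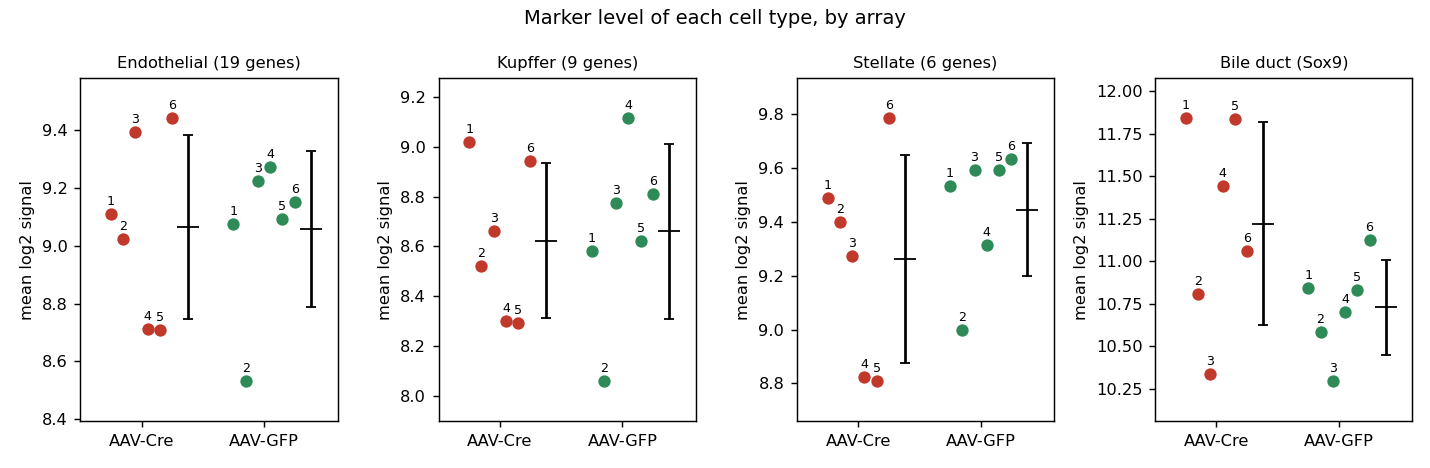
Mean log2 signal of the measured markers of each cell type on the 6 AAV-Cre and the 6 AAV-GFP arrays, numbered by replicate, with the group mean and SD in black. AAV-Cre 4, AAV-Cre 5 and AAV-GFP 2 are the 3 lowest arrays for endothelial, Kupffer and stellate markers, and for Sox9 AAV-Cre 4 and AAV-Cre 5 are among the 3 highest.

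Marker signal of these 3 cell types varied more between arrays of 1 group than between the group means. Summed on the linear scale, the endothelial signal lay between 9536 and 20966 on the AAV-Cre arrays and between 8268 and 16877 on the AAV-GFP arrays. From the lowest to the highest array, the summed signal differed 2.54-fold for endothelial, 2.43-fold for Kupffer and 2.78-fold for stellate markers, background included. In such a sum the probes of highest signal weigh most, here Clec4g for endothelial and Dcn for stellate markers. These 2 genes ranged over 2.37 and 2.23 log2 units. AAV-GFP 2 was the lowest of the 12 arrays for 20 of the 35 markers, and AAV-Cre 6 the highest for 12. The 3 low arrays, AAV-Cre 4, AAV-Cre 5 and AAV-GFP 2, detected 15126, 14754 and 15025 probes, all in the lower part of the range. AAV-GFP 6, which detected the fewest at 14318, had levels among the higher ones. AAV-GFP 4, with 15091 probes, had the highest Kupffer level of the 12 arrays, at 9.12. The part of detection depth in the levels was not tested.

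This spread was wide by the measure of other genes. Of the 18 markers detected on all 12 arrays, 17 had a within-group SD above the median of 0.179 over the 11952 probes detected on all 12 arrays, and 14 had one above their 90th percentile of 0.365. The median SD of the 18 was 0.474. Clec4g and Dcn were the most variable, with SDs of 0.79 and 0.79. Kdr was the only one of the 18 under the median of all such probes. It lay between 8.27 and 8.61, close to the mean lowest detected signal of 8.22, where differences are compressed.

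**Figure D4:**
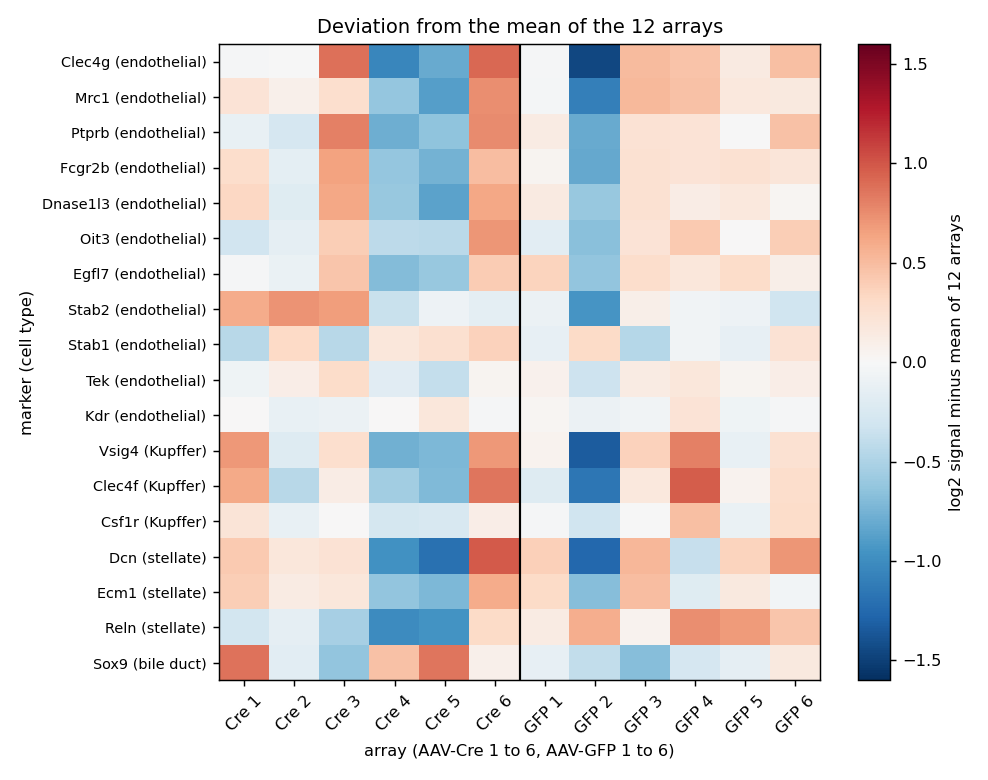
Deviation of each of the 18 markers detected on all 12 arrays from its own mean over the 12 arrays, in log2 units, with the AAV-Cre arrays to the left of the line and the AAV-GFP arrays to the right. The columns of AAV-Cre 4, AAV-Cre 5 and AAV-GFP 2 are blue (below the mean) for most endothelial, Kupffer and stellate markers, while the rows of Stab1, Kdr, Reln and Sox9 depart from that pattern.

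Markers of different cell types moved together from array to array. After removal of the group means, the endothelial and Kupffer levels correlated over the 12 arrays with Pearson's r = 0.853 and Spearman's rho = 0.853, and r was 0.691 without the 2 arrays farthest from the median. Endothelial and stellate levels had r = 0.818, rho = 0.622, and r = 0.653 without the 2 farthest, and Kupffer and stellate levels had r = 0.725, rho = 0.685, and r = 0.865 without them. Sox9 did not join this pattern, with r of 0.0020 to the Kupffer level, -0.41 to the endothelial level and -0.18 to the stellate level. These 6 relations are a description, because all genes of an array share its hybridisation and its normalization.

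**Figure D5:**
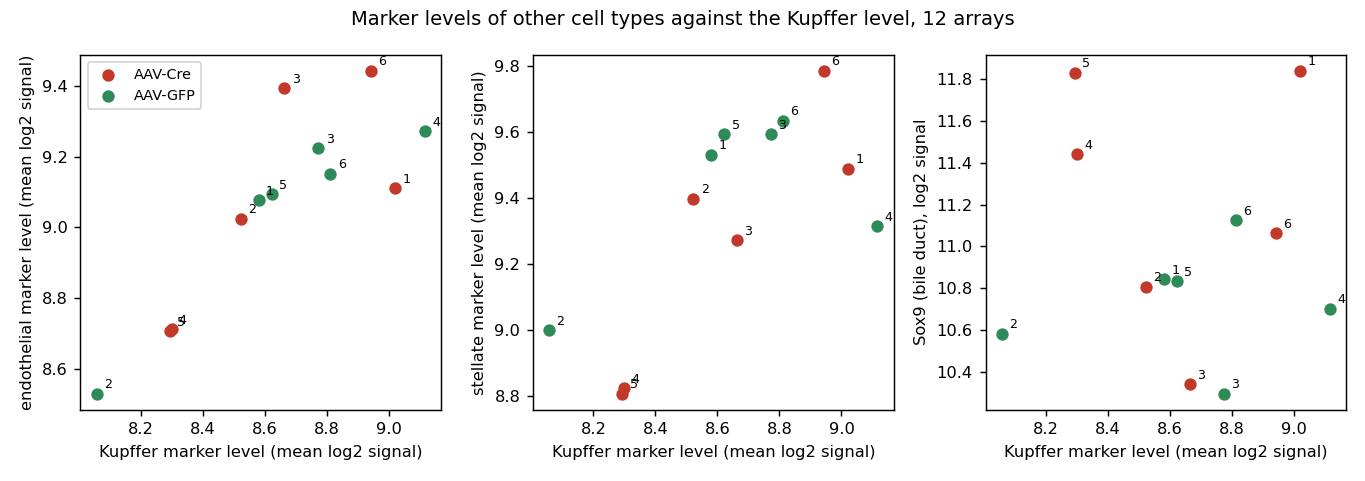
Endothelial level, stellate level and Sox9 signal (log2) of each array against its Kupffer level, with AAV-Cre arrays in red and AAV-GFP arrays in green, numbered by replicate. Endothelial and stellate levels are mostly higher on arrays with a higher Kupffer level in both groups, with AAV-GFP 4 as an exception for stellate markers, and Sox9 shows no such order.

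Gene by gene, 13 of 19 endothelial markers had r above 0.7 to the Kupffer level. Among them were Pecam1 (r = 0.92), Mrc1 (r = 0.89), Cdh5 (r = 0.88) and Flt1 (r = 0.88). Of these, Mrc1 is also a receptor of macrophages, and Pecam1 was detected on only 5 arrays. Against the endothelial level, 6 of 9 Kupffer markers had r above 0.7, with Vsig4 (r = 0.92) and Clec4f (r = 0.87) closest. Of the 6 stellate markers, Dcn (r = 0.72) and Ecm1 (r = 0.70) passed 0.7 to the Kupffer level and Reln (r = 0.47) did not. Counting only markers detected on all 12 arrays, 7 of 11 endothelial, 3 of 3 Kupffer and 2 of 3 stellate markers passed 0.7. Among the 11952 probes detected on all 12 arrays, 0.535% had r above 0.7 to the Kupffer level and 0.720% to the endothelial level. The endothelial exceptions were Stab1 (r = -0.42), Kdr (r = 0.27), Wnt2 (r = 0.30), Stab2 (r = 0.56), Emcn (r = 0.58) and Tek (r = 0.69). Of these, Kdr, Wnt2 and Emcn had signals close to background, where variation is compressed. Pecam1 and Lyve1 were close to background as well, detected on 5 and 6 arrays, but passed 0.7 (r = 0.92 and 0.79). The part of signal level in r was not tested. Probes of a gene did not always share r: the other two Stab1 probes had 0.73 and 0.61, and the other kept probes of Pecam1 and Cdh5, detected on 4 and 2 arrays, had 0.69 and 0.62.

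With the Kupffer level of each array as a covariate, an alternative chosen after the data were seen, the Reln difference was -0.86 (limma adjusted p = 0.195) and that of Stab2 0.49 (limma adjusted p = 0.877). The difference of Sox9 stayed at 0.49 (limma adjusted p = 1.00). The Kupffer level differed by only -0.037 between the groups, so as a covariate it could move these differences little.

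Further genes of the same cell types, on lists chosen with results known, also held no called gene. Of 18 measured other endothelial genes, 15 other macrophage genes, 10 other mesenchymal genes and 5 other bile duct genes, none was called in either direction, and 2 had an unadjusted p under 0.05, Col4a1 and Krt23. Over all kept probes, 0.165% were called and 5.05% had an unadjusted p under 0.05 (limma), so these 2 genes are no more than that share. The median differences of the lists were -0.0084, -0.015, 0.0071 and 0.0075. Krt23, a keratin of bile duct cells, lay between 9.69 and 13.27 (median 11.79) on the AAV-Cre arrays and between 8.72 and 10.90 (median 10.22) on the AAV-GFP arrays, with a difference of 1.54 (SE 0.55, limma adjusted p = 0.726, exact permutation p = 0.039). Col4a1, a basement membrane collagen, lay between 8.93 and 9.91 (median 9.63) on the AAV-Cre arrays and between 8.97 and 9.49 (median 9.17) on the AAV-GFP arrays, with a difference of 0.35 (SE 0.15, limma adjusted p = 0.955, exact permutation p = 0.0736). In both genes the groups overlapped. The genes of lowest p on the other endothelial and macrophage lists, Tinagl1, which encodes a matrix protein, and Slc40a1, the iron exporter that hepatocytes also make, had differences of 0.12 and -0.21.

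The array pattern of the markers extended to part of these lists. To the Kupffer level, 8 of 15 other macrophage genes had r above 0.7, with Cfp (r = 0.96) and Adgre1 (r = 0.94) closest, and so did 7 of 18 other endothelial genes, among them Adgrl4 (r = 0.85) and Aqp1 (r = 0.82). An r above 0.7 was found for 1 of 10 other mesenchymal genes (median r 0.30) and 0 of 5 other bile duct genes (median r -0.21), and Col4a1 ran against the Kupffer level (r = -0.75). These 5 genes were named for their r after the values were seen. On the hepatocyte list 0 of 12 passed 0.7, with r between -0.40 and 0.24. Outside all lists, the named genes closest to the Kupffer level were Tmsb4x (r = 0.97), an actin-binding peptide abundant in blood and vascular cells, and Fcna (r = 0.87), a ficolin of macrophages.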

How the data were processed

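Total RNA of 12 hepatocyte samples was hybridised to Illumina whole-genome bead arrays. The authors exported from GenomeStudio the deposited probe intensity, which still held its background, and the deposited detection p-value of each probe against the negative controls of its array. A second deposited table held intensity values that the authors had quantile-normalized and filtered, and it served as an alternative and for gene symbols. No build is tied to the probes (not given in the sources used here).

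From the exported intensity of 45281 probes, values were quantile-normalized between arrays and log2-transformed, and probes with a detection p-value above 0.05 on all 12 arrays were left out, which kept 20561. Of these, 16568 carried 1 gene symbol. AAV-Cre was compared with AAV-GFP by limma (version 3.58.1, R 4.3.3, lmFit and eBayes, two-sided), with p adjusted by Benjamini-Hochberg over the 20561 probes. The study named SAM for this step, which was not run here. Exact two-sided permutation tests ran over the 924 possible groupings into 6 and 6 arrays, with 0.00216 as the smallest p possible. The fit was tested on simulated data.

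Markers and lists were chosen with earlier results of these data known. Values by array are given for Pecam1 and Cdh5, for the markers with the lowest p in each cell type among those detected on 6 or more arrays (8 endothelial, 4 Kupffer, 4 stellate and 2 bile duct at most), for the 6 with the largest within-group SD, and for the gene of lowest p on each other list. Alternatives were a replicate block, normexp background correction, median scaling, the authors' table, detection on at least 6 arrays, no detection filter, the mean of all kept probes of a gene, and each array left out. Replicate numbers occur in both groups, but deviations of arrays with the same number correlated between -0.20 and 0.40, so they were not taken as pairs. The number of arrays limits the precision.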

Additional observations from a re-analysis of the deposited data

Results flagged for a closer look

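Within groups of 6 arrays, single values were examined for lying apart from the rest: the gap to the nearest other array divided by the range of the group, held against Dixon's critical value for 6 values. Of 90 groups examined (45 genes or levels in both groups), 13 had such a value, where chance alone gives about 1 in 20. The genes move together, so these are not 13 separate events.

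Of the 13, 9 were low values on AAV-GFP 2. There, Clec4g was at 10.70, where the next lowest AAV-GFP array was at 12.15. Fcgr2b, an inhibitory receptor for antibodies, was at 8.76 (next 9.63), Mrc1 at 8.41 (next 9.48), Egfl7 at 9.01 (next 9.73) and Dnase1l3, a secreted nuclease, at 8.58 (next 9.21). The receptors Tek, Eng and Gpr182 were at 8.36, 7.91 and 8.07, and the endothelial level was at 8.53, where the next lowest array was at 9.08. All of these are endothelial measures, and the Kupffer and stellate levels of AAV-GFP 2 were also the lowest of its group without passing the critical value.

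The other 4 values were scattered. Marco was at 8.45 on AAV-Cre 1, the only array that detected it, and Des was at 8.11 on AAV-Cre 3, its lowest. Krt23 was at 8.72 on AAV-GFP 1. Alas2, an enzyme of haem synthesis, was at 9.65 on AAV-Cre 3, with the other 5 AAV-Cre arrays at 12.16 or above. AAV-Cre 3 was also the array with the high Xist signal.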

How the results depend on the processing

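No marker was called with any other normalization, filter, probe summary or block, or with any 1 array left out. Adjusted p of Reln lay between 0.0666 and 0.456 over these and the Kupffer covariate, and its difference between -1.07 and -0.76. The replicate block gave Reln an adjusted p of 0.314 and 0 called markers, and it moved the count over all probes to 20, against 34 without it. That count was 18 with normexp background correction, 10 with median scaling and between 19 and 42 with 1 array left out. Levels of the 4 cell types moved by less than 1 SD in every alternative. With 1 array left out, their differences ran from -0.098 to 0.079 (endothelial), -0.16 to 0.055 (Kupffer), -0.29 to -0.091 (stellate) and 0.37 to 0.67 (Sox9).

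Of 30 genes followed, 16 kept the sign of their difference in all alternatives, among them Reln, Stab2, Sox9 and Krt23, and 14 did not. Those 14 differed by at most 0.12 (log2) in the values reported above. Median scaling, which moved the median of all probes to 0.029, gave Pecam1 0.021, Cdh5 0.0081, Ecm1 0.039, Clec4g 0.042, Vsig4 0.055, Clec4f 0.026 and Mrc1 0.0026. Normexp correction gave Vsig4 0.056. The mean of all kept probes gave Stab1 -0.0054 and Clec4f 0.00055. The Kupffer level as a covariate gave Pecam1 0.014, Ecm1 0.025 and Clec4g 0.038. With 1 array left out, the ranges of the differences were Pecam1 -0.048 to 0.048, Cdh5 -0.090 to 0.040, Tek -0.14 to 0.0033, Eng -0.028 to 0.11, Stab1 -0.0022 to 0.18, Flt1 -0.19 to 0.045, Ptprb -0.25 to 0.066, Cd163 -0.051 to 0.25, Dcn -0.38 to 0.10, Ecm1 -0.15 to 0.13, Clec4g -0.33 to 0.17, Vsig4 -0.28 to 0.15, Clec4f -0.27 to 0.15, Mrc1 -0.29 to 0.10. The causes were not tested.

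Depth of signal limits what can be read: 5 of the 35 markers were detected on fewer than 6 arrays, where differences are compressed towards 0. The bile duct rests on 1 gene. Leaving out AAV-Cre 3 changed the Alas2 difference to -0.38, against -0.86 with it. The limma adjusted p without AAV-Cre 3 was 0.583, the lowest for Alas2 with any 1 array left out.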

Other observations

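Blood cell markers were near background or uneven. All 5 measured lymphocyte genes were detected on fewer than 6 arrays, none was called, and the median difference was -0.0094. The gene of lowest p, Cd3e, a chain of the T cell receptor complex, lay between 7.75 and 8.22 (median 7.84) on the AAV-Cre arrays and between 7.79 and 8.25 (median 7.96) on the AAV-GFP arrays, with a difference of -0.089 (SE 0.10, limma adjusted p = 1.00, exact permutation p = 0.392).

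Of 7 measured erythroid and neutrophil genes, none was called and 0 had an unadjusted p under 0.05 (limma). The globin gene Hba-a1, whose probe may also bind RNA of its near-identical copy, lay between 9.38 and 12.66 (median 9.51) on the AAV-Cre arrays and between 8.33 and 11.27 (median 8.83) on the AAV-GFP arrays, with a difference of 0.97 (SE 0.59, limma adjusted p = 1.00, exact permutation p = 0.208). It was highest on AAV-Cre 3, and without that array, a setting chosen after the data were seen, the difference was 0.46 (SE 0.43). Alas2, of lowest p on this list, lay between 9.65 and 12.76 (median 12.49) on the AAV-Cre arrays and between 12.61 and 13.07 (median 12.93) on the AAV-GFP arrays, with a difference of -0.86 (SE 0.43, limma adjusted p = 1.00, exact permutation p = 0.00866). The exact permutation test and limma thus part for Alas2, whose lowest value, 9.65, was on AAV-Cre 3. Without AAV-Cre 3 the Alas2 difference was smaller, at -0.38, and so was its limma adjusted p, at 0.583. Hba-a1 was named after its values were seen.

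Of 12 measured hepatocyte genes, none was called and the median difference was 0.033. Hp, which encodes the plasma protein haptoglobin, lay between 15.41 and 15.94 (median 15.78) on the AAV-Cre arrays and between 15.01 and 15.80 (median 15.18) on the AAV-GFP arrays, with a difference of 0.48 (SE 0.13, limma adjusted p = 0.387, exact permutation p = 0.013). For Hp the groups overlapped, and the difference lay between 0.42 and 0.58 over all alternatives.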
